A study of Mus musculus with 15 samples.

Results

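The genes described here are the proteasome genes of the mouse: every gene symbol on the array that starts with Psm, a letter from a to g and a digit. Of 16593 gene symbols on the array, 45 matched, and 41 of these were measured among 6838 genes in all. A gene was measured when at least 1 group had a probe of it with a detection p-value under 0.05 on each of its 3 arrays; the brightest such probe on average stood for the gene. The 4 matching genes that were not measured were Psma1 and Psma6, detected on 0 of 15 arrays, Psmc6, detected on 5, and Psmd9, with 2 probes detected on 3 arrays each. The pattern also matched Psmc3ip, a partner protein of a proteasome ATPase gene known for its work in meiotic recombination, and Psme3ip1, which encodes a protein that binds a proteasome activator. Neither encodes a proteasome subunit or assembly factor, so 39 of the 41 measured genes are proteasome genes in the strict sense.

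The proteasome is the barrel-shaped protease that degrades ubiquitin-tagged proteins in the cytosol and nucleus. Its 20S core has outer rings of alpha subunits (Psma genes) and inner rings of beta subunits (Psmb genes). Psmb5, Psmb6 and Psmb7 encode the constitutive catalytic subunits, and after interferon gamma, or constantly in many lymphoid cells, they are exchanged for the immunoproteasome subunits encoded by Psmb8, Psmb9 and Psmb10, which cut proteins into peptides suited to MHC class I. The 19S cap that recognises and unfolds substrates is built from ATPases (Psmc genes) and non-ATPase subunits (Psmd genes), the Psme genes encode alternative activators, and the Psmg genes with Psmd5, Psmd9 and Psmd10 encode chaperones of assembly.

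The series compared thymic lymphocytes with and without Dicer, the RNase that makes mature microRNAs. All 15 arrays came from Dicer lox/lox mice aged 4 weeks, and each of 5 groups held 3 arrays. The WT groups carried no Cre (CD4-Cre -/-) and the KO groups carried CD4-Cre +/-, a transgene whose promoter is active from the double-positive thymocyte stage on. Invariant natural killer T (iNKT) cells were sorted as HSA low, TCRβ int and CD1d tetramer+; the WT sort was divided into stage 1-2 (NK1.1-, CD44 high or low) and stage 3 (NK1.1+, CD44 high), and the KO sort was not divided. Conventional T cells were HSA low, TCRβ+ and CD1d tetramer-. Nothing in the labels says whether the 3 arrays per group stand for separate mice, so the p-values measure the spread between these arrays, which may be technical. In sorted bulk samples fewer cells of a type and less RNA per cell cannot be told apart.

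Levels are log2 intensities after background correction and quantile normalisation, errors of levels are SDs over 3 arrays, and errors of log2 changes are standard errors of the limma fit. The threshold was an adjusted p (Benjamini-Hochberg, over all 6838 genes) under 0.05. The median raw signal of an array ran from 88.25 to 124.3, between 29.2% and 40.8% of probes were detected, and the lowest correlation between arrays of a group was 0.942. Dicer1 on the KO arrays overlapped stage 1-2 and WT T cells and lay below stage 3: it was 5.94, 6.60 and 6.21 in stage 1-2, 7.31, 6.62 and 7.60 in stage 3, 6.31, 6.21 and 6.48 in KO iNKT, 6.43, 6.59 and 6.30 in WT T and 6.12, 6.44 and 6.60 in KO T cells. Where its probe lies relative to the deleted exons is not given in the sources used here, so Dicer1 does not check the genotype labels. The 4 markers of mature iNKT cells (Klrb1c, Tbx21, Ifng and Xcl1) averaged 8.64 to 8.79 in stage 3 and 4.95 to 5.46 in stage 1-2 and 5.28 to 5.43 in KO iNKT. Markers of other cells were present in the iNKT sorts: 8 neutrophil and monocyte genes averaged 10.2 to 10.7 in stage 1-2, 5.88 to 7.65 in stage 3 and 10.3 to 12.6 in KO iNKT. In WT T cells all 8 of these genes were detected on no array, and in KO T cells 7 of 8, with averages of 4.37 to 4.51 over both groups. Markers of B and antigen-presenting cells (4 genes) averaged 8.73 to 10.26 in stage 1-2, 5.78 to 6.67 in stage 3, 9.16 to 10.68 in KO iNKT and 4.60 to 5.12 in T cells. Those of plasmacytoid dendritic cells (4 genes) averaged 7.42 to 8.36, 5.0 to 6.18, 8.80 to 9.27 and 5.46 to 5.69. Markers of conventional mature T cells (3 genes) averaged 7.58 to 7.93 in stage 1-2, 5.99 to 6.78 in stage 3 and 8.38 to 9.23 in KO iNKT. The 3 measured iNKT markers were at 6.71 to 6.96 in KO iNKT, within the 6.60 to 6.97 of WT T cells and below the 7.70 to 8.69 of both WT stages. Double-positive thymocyte markers (3 genes) averaged 5.03 to 6.46 in stage 1-2, 4.57 to 4.97 in stage 3, 6.12 to 6.81 in KO iNKT and 4.56 to 5.05 in T cells. General T cell markers (4 genes) averaged 10.97 to 11.54, 11.65 to 11.94, 10.53 to 11.18 and 12.09 to 12.22 in the same order.

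The upstream windows of the catalytic and chaperone genes that the results below turn on are printed 5′ to 3′ on the strand of the gene, 250 bases before to 50 after the annotated start, from RefSeq on GRCm38.p6. They are shown because Psmb9 differed from Psmb6 between iNKT and T cells and because Psmb8 lies near Psmb9 on the same chromosome. The chaperone genes Psmg1 and Psmg3 are shown because they were lower in stage 3 than in stage 1-2. Capitals mark matches to 5 motifs searched on both strands: the core of the interferon-stimulated response element GAAANNGAA, the gamma-activated sequence TTCNNNGAA, the antioxidant response element TGACNNNGC, the CCAAT box CCAAT and the ETS site CCGGAAG. Psmb9 lies at chr17:34187281-34187580 on the minus strand, Psmb8 at chr17:34197945-34198244 on the plus strand, Psmb6 at chr11:70525107-70525406 on the plus strand, Psmg1 at chr16:95990911-95991210 on the minus strand and Psmg3 at chr5:139826845-139827144 on the minus strand.
Psmb9: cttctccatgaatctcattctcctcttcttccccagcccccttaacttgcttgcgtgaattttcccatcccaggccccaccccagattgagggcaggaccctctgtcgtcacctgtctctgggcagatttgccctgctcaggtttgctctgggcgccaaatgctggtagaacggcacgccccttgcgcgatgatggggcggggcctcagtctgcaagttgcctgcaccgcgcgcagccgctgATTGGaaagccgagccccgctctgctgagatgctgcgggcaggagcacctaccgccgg
Psmb8: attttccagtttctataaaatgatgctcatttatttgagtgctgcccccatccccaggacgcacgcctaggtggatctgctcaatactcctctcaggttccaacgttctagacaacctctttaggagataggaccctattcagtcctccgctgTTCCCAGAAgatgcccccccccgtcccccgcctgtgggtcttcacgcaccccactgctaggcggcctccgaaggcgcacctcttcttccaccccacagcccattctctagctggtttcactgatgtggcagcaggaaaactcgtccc
Psmb6: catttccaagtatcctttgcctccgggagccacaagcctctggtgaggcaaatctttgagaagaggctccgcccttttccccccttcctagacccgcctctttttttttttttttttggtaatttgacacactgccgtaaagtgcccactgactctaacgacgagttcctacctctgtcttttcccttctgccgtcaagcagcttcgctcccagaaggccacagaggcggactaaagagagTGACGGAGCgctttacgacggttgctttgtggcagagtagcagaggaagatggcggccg
Psmg1: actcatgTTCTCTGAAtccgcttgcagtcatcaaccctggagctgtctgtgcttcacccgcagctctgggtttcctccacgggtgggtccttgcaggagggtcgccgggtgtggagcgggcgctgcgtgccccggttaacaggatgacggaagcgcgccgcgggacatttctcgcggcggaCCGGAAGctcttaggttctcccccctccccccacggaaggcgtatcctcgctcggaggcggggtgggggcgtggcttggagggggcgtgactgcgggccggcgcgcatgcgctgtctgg
Psmg3: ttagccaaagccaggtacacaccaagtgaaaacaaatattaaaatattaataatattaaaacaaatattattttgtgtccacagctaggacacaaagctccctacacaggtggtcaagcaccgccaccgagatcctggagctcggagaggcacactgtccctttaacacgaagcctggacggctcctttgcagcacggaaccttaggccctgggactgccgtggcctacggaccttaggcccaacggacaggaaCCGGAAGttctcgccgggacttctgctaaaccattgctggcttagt
In these windows Psmb9 held 1 CCAAT box, Psmb8 a gamma-activated sequence, Psmb6 an antioxidant response element, Psmg1 a gamma-activated sequence and an ETS site, and Psmg3 an ETS site. No matches in the printed windows overlap. A match is a match of letters and not a shown binding site, and no match says only that these letters are not in the window. A window was available for 39 genes that match the symbol pattern. They include Psmc3ip, Psme3ip1 and unmeasured genes, so they are not the 39 proteasome genes defined above. The ETS site stood in a window of 16 of these 39 matching genes (41.0%), Psmc3ip and Psme3ip1 among them, against 8.86% of 32851 windows of the annotation. The first share counts genes and the second single windows of the whole annotation. Windows of the measured genes alone were not compared, so the shares do not show an enrichment particular to proteasome genes. The other motifs stood in a window of 6, 3, 6 and 15 of the 39 genes (15.4%, 7.69%, 15.4% and 38.5%), against 8.56%, 8.3%, 12.4% and 37.4% of all windows. The order is the interferon-stimulated response element, the gamma-activated sequence, the antioxidant response element and the CCAAT box. The Psmb9 window shares 275 bases with the window of Tap1, the peptide transporter gene read on the opposite strand.

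Psmb9, which encodes the immunoproteasome subunit that replaces Psmb6, was lower in iNKT than in T cells. Its level was 9.17, 9.83 and 9.84 on the stage 1-2 arrays, 9.37, 9.0 and 8.79 in stage 3, 10.06, 10.13 and 9.72 in KO iNKT, 10.67, 10.26 and 10.51 in WT T and 10.47, 10.60 and 10.31 in KO T cells. All 9 iNKT arrays lay below all 6 T cell arrays, while stage 3 overlapped stage 1-2 and stage 1-2 overlapped KO iNKT. Of the 41 genes 2 were lower on every iNKT array than on any T cell array (4.88%) and 1 was higher (2.44%), against 6.08% and 4.84% of all genes. The other two were the PA28 activator gene Psme1, with 10.24 to 10.71 in iNKT and 10.77 to 10.87 in T cells, and the cap ATPase gene Psmc3, with 8.24 to 8.55 and 7.77 to 8.17. Against WT T cells Psmb9 fell by 0.87 ± 0.23 on the log2 scale in stage 1-2 (1.82-fold lower, limma adjusted p = 0.01033), when 11.9% of all genes passed as lower and 11.5% as higher. It fell by 1.43 ± 0.23 in stage 3 (2.69-fold lower, limma adjusted p = 1.794e-04), when 12.5% of all genes passed as lower and 10.6% as higher.

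The other immunoproteasome subunits did not pass in any of 7 comparisons. Psmb8, the partner that replaces Psmb5, was 8.31, 8.69 and 8.46 in stage 1-2, 8.14, 8.27 and 8.34 in stage 3, 8.44, 8.83 and 8.31 in KO iNKT, 8.65, 8.67 and 8.70 in WT T and 9.03, 8.31 and 8.88 in KO T cells. Stage 3 lay below WT T cells on every array, by a log2 difference of -0.42 with a 95% interval of -0.88 to 0.03 (limma adjusted p = 0.1714). Psmb10, which replaces Psmb7, kept within 10.16 and 10.70 over the 15 arrays. Its group means ran from 10.41 ± 0.12 in stage 3 to 10.61 ± 0.10 in KO iNKT, and the interval of its difference between stage 3 and WT T cells was -0.46 to 0.32.

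Among the constitutive partners, Psmb6 was 10.39, 10.32 and 10.36 in stage 1-2, 10.01, 9.61 and 9.55 in stage 3, 10.15, 10.34 and 10.25 in KO iNKT, 10.09, 9.83 and 9.95 in WT T and 9.88, 9.64 and 9.46 in KO T cells. It was highest on the stage 1-2 and KO iNKT arrays, which lay above all others. Psmb7 was 8.78, 9.35 and 9.18 in stage 1-2 and 8.45, 8.49 and 8.39 in stage 3, its lowest group, with 8.54 to 9.05 on the other 9 arrays. Psmb5 varied too much within groups to order them: its range was 6.59 to 8.0 in stage 1-2, 6.51 to 7.73 in WT T and 6.23 to 8.11 in KO T cells.

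**Figure D1:**
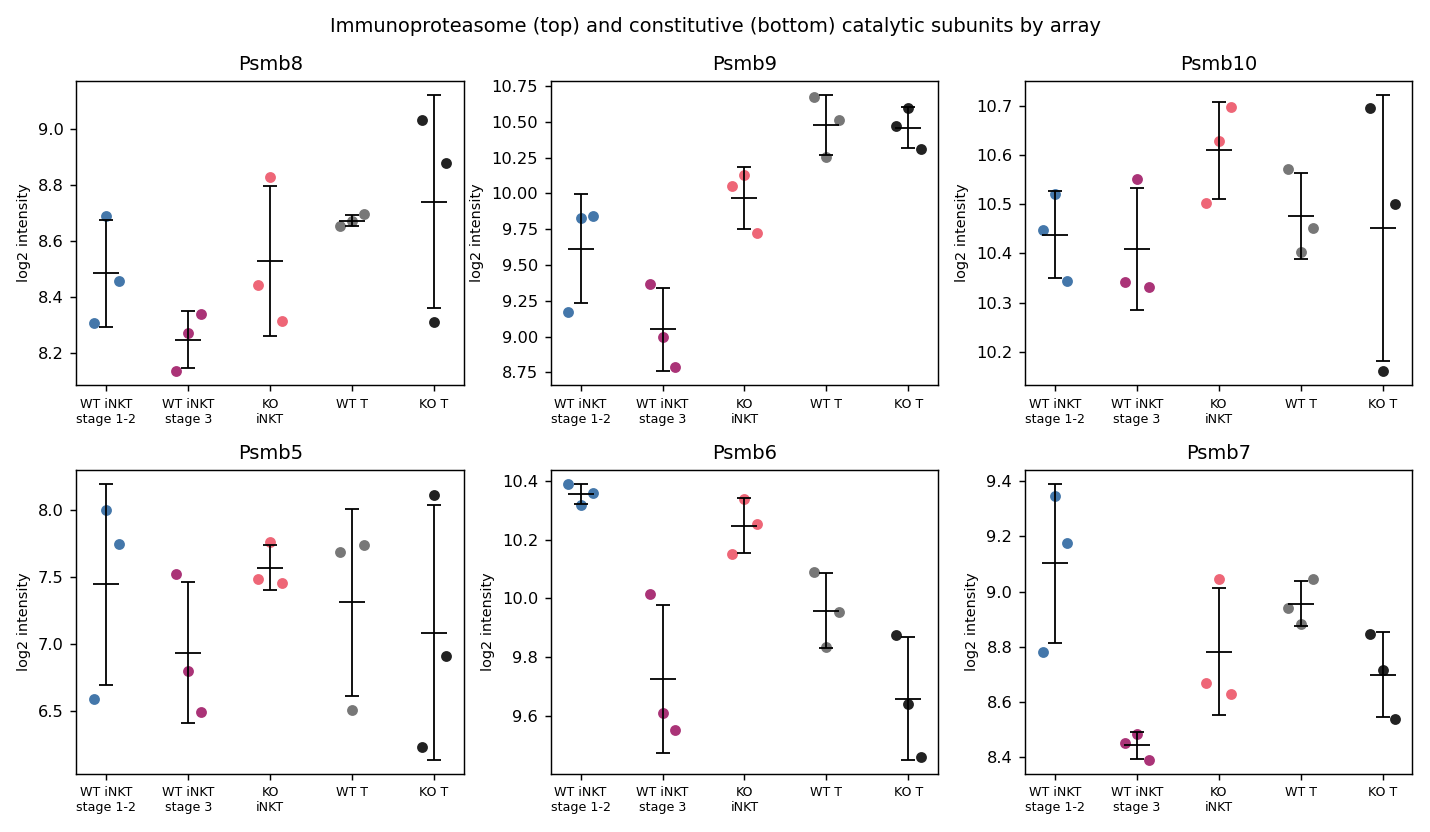
Log2 intensity of the 3 immunoproteasome subunits (top) and their constitutive counterparts (bottom) on each of 15 arrays, with the mean and SD of each group; vertical axes differ between panels and do not start at 0. Psmb9 lies between 8.79 and 10.13 on the 9 iNKT arrays and between 10.26 and 10.67 on the 6 T cell arrays.

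Each immunoproteasome subunit was then set against its constitutive counterpart on the same array, since the difference of their log2 intensities does not depend on a scaling of whole arrays. Probes differ in efficiency, so the difference is read between groups and not as a ratio of transcripts. Psmb9 minus Psmb6 was -1.21, -0.49 and -0.52 in stage 1-2, -0.65, -0.61 and -0.76 in stage 3, -0.10, -0.21 and -0.53 in KO iNKT, 0.58, 0.42 and 0.56 in WT T and 0.60, 0.96 and 0.85 in KO T cells. It was negative on all 9 iNKT arrays and positive on all 6 T cell arrays. The mean was -0.56 ± 0.32 (SD, n = 9) in iNKT and 0.66 ± 0.20 (SD, n = 6) in T cells, a difference of -1.23 with an exact two-sided permutation p of 0.0001998 over 5005 splits, the smallest they can give, and 0.0005994 after Benjamini-Hochberg adjustment over 3 pairs. These splits shuffled single arrays of pooled groups and not whole groups. They treat the arrays of a group as independent, which the labels do not show, so the p may be too small. Within the WT arrays, where both iNKT stages were pooled, the difference was -1.23 (exact permutation p = 0.0119). Within the KO arrays it was -1.08, and 3 arrays against 3 cannot go below the exact permutation p of 0.1 that it gave.

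In the other pairs iNKT and T cell arrays overlapped. Psmb8 minus Psmb5 was 1.11 ± 0.46 (SD, n = 9) in iNKT and 1.51 ± 0.96 (SD, n = 6) in T cells, a difference of -0.40 (exact permutation p = 0.2895, 0.4342 after adjustment). Psmb10 minus Psmb7 was 1.71 ± 0.35 (SD, n = 9) and 1.64 ± 0.23 (SD, n = 6), a difference of 0.07 (exact permutation p = 0.645, also after adjustment). It ran from 1.17 to 1.67 in stage 1-2 and from 1.89 to 2.07 in stage 3 without overlap, where 3 arrays against 3 allow an exact permutation p no lower than 0.1. The stage 3 arrays also lay above every WT T array, by a mean difference of 0.45. Stage 1-2 overlapped WT T cells, with a mean difference of -0.18, so the pooled value joins stage differences of opposite sign. A set of 10 interferon-induced genes, chosen to hold no immunoproteasome or MHC class I processing gene, had mean levels of 7.75 to 8.42 on the iNKT arrays and of 8.40 to 9.16 on the T cell arrays, which overlapped slightly, and the neutrophil and monocyte markers were high in iNKT as given above. The part of either in the Psmb9 difference was not tested.

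**Figure D2:**
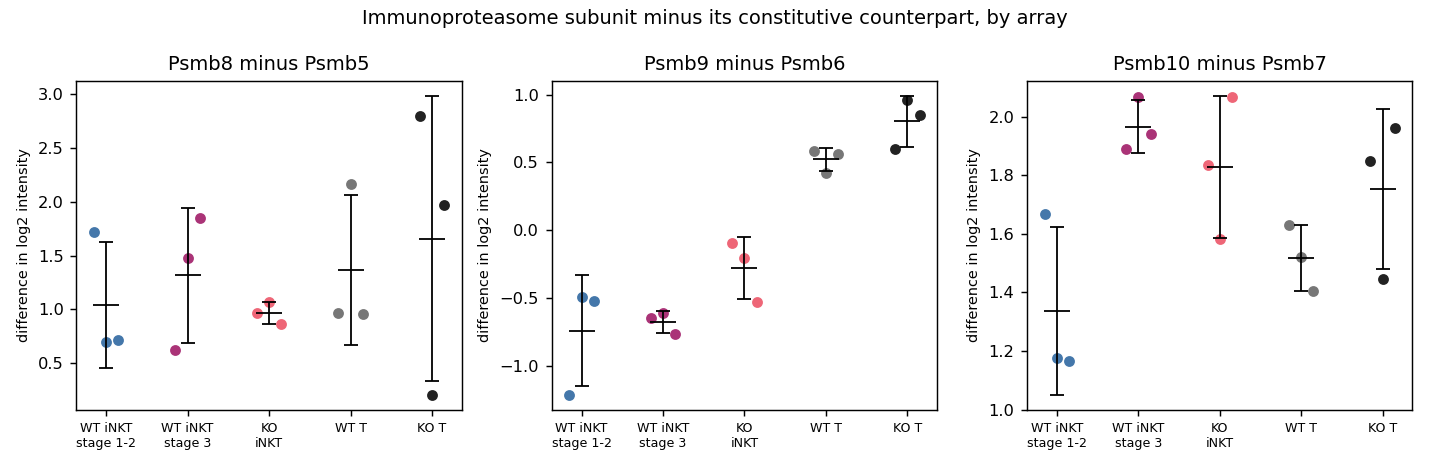
Difference in log2 intensity between each immunoproteasome subunit and its constitutive counterpart on each of 15 arrays, with the mean and SD of each group; vertical axes differ. Psmb9 minus Psmb6 is below 0 on the 9 iNKT arrays and above 0 on the 6 T cell arrays, while the other pairs overlap between iNKT and T cells.

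The comparison of stage 3 with stage 1-2 asks how the genes change as WT iNKT cells mature. In stage 3, 10 of the 41 measured genes were lower and 0 were higher (24.4% lower), against 11% of all genes lower and 9.11% higher. The arrays of the groups did not overlap for 18 genes, all lower in stage 3 (43.9%), against 17.3% of all genes lower and 15.3% higher. The median log2 change was -0.40, with 35 of 41 genes negative, against -0.00 over all genes, of which 50.1% were negative. The mean level of the 39 proteasome genes was 8.38 to 8.41 in stage 3 and 8.60 to 8.96 in stage 1-2.

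Of the assembly chaperones Psmg1 and Psmg3 passed, both lower in stage 3. Psmg1, which pairs with Psmg2 to guide the alpha ring, was 7.39, 7.28 and 6.97 in stage 1-2 and 6.01, 5.28 and 6.19 in stage 3. It fell by 1.39 ± 0.27 (2.62-fold lower, limma adjusted p = 0.001708). Psmg3, a subunit of the second chaperone pair for the alpha ring, was 6.71, 6.68 and 6.65 in stage 1-2 and 5.97, 5.13 and 4.86 in stage 3, and fell by 1.36 ± 0.29 (2.57-fold lower, limma adjusted p = 0.002965). Neither gene overlapped between the groups, and their stage 3 signal was near background, with Psmg1 detected on 2 and Psmg3 on 1 of 3 arrays. The size of both changes depended on the background correction: without it they were -0.66 and -0.54, with both calls kept, where Psmb2 and Psma5 of the 20S core gave -0.90 and -0.88. Of the other chaperones Psmg2, Psmd5 and Psmd10 did not pass. Pomp, the maturation factor of the beta ring, was 11.23, 11.52 and 11.63 in stage 1-2 and 11.09, 10.66 and 10.47 in stage 3, a fall of 0.72 ± 0.22 (limma adjusted p = 0.02977), the only one of 11 other proteasome-associated genes tested to pass.

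In the 20S core, 3 of 5 alpha genes, 1 of 4 non-catalytic beta genes and 2 of 3 constitutive catalytic genes were lower, and 0 of 3 immunoproteasome genes passed. Psma5 was 10.73, 11.17 and 10.99 in stage 1-2 and 10.07, 9.89 and 10.12 in stage 3 and fell by 0.93 ± 0.19 (1.91-fold lower, limma adjusted p = 0.002149). Psmb2, a non-catalytic beta subunit, was 10.51, 11.18 and 10.90 against 10.13, 9.80 and 9.76 and fell by 0.97 ± 0.21 (1.95-fold lower, limma adjusted p = 0.003955). Both genes kept every stage 3 array below every stage 1-2 array. Psma7 fell by 0.73, Psma4 by 0.66, Psmb7 by 0.66 and Psmb6 by 0.63, with limma adjusted p between 0.02528 and 0.03825. Psmb9 (-0.56, interval -1.05 to -0.08), Psmb8 (-0.24, interval -0.69 to 0.22) and Psmb10 (-0.03, interval -0.42 to 0.36) had adjusted p of 0.09135, 0.4885 and 0.9259 in the limma fit, and whether they differed from the constitutive subunits in this comparison was not tested across genes.

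In the 19S cap 0 of 5 ATPase genes passed, although all 5 log2 changes were negative, between -0.57 and -0.18. Of 10 non-ATPase genes only Psmd7, a lid subunit that partners the deubiquitinase Psmd14, passed. It was 9.20, 9.50 and 9.29 in stage 1-2 and 8.36, 8.49 and 8.58 in stage 3, and fell by 0.85 ± 0.18 (1.81-fold lower, limma adjusted p = 0.002667). A dimmer probe of Psmd7 did not pass (-0.52, adjusted p = 0.2593 in a limma fit of every probe). The other 9 non-ATPase genes ranged from -0.79 for Psmd8 to 0.50 for Psmd11. Of the activators, Psme1 and Psme2, which form the interferon-induced PA28 ring, changed by -0.11 and -0.63 and did not pass (limma adjusted p = 0.716 and 0.1161), nor did Psme3 and Psme4.

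Psmc3ip, not a proteasome gene, was also lower in stage 3. It was 6.48, 6.70 and 6.86 in stage 1-2 and 4.82, 4.70 and 5.19 in stage 3, where 1 of 3 arrays detected it, and fell by 1.78 ± 0.28 (3.43-fold lower, limma adjusted p = 2.131e-04). Its change was -0.68 without background correction. Leaving Psmc3ip out of the count, 9 of 39 proteasome genes were lower (23.1%).

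**Figure D3:**
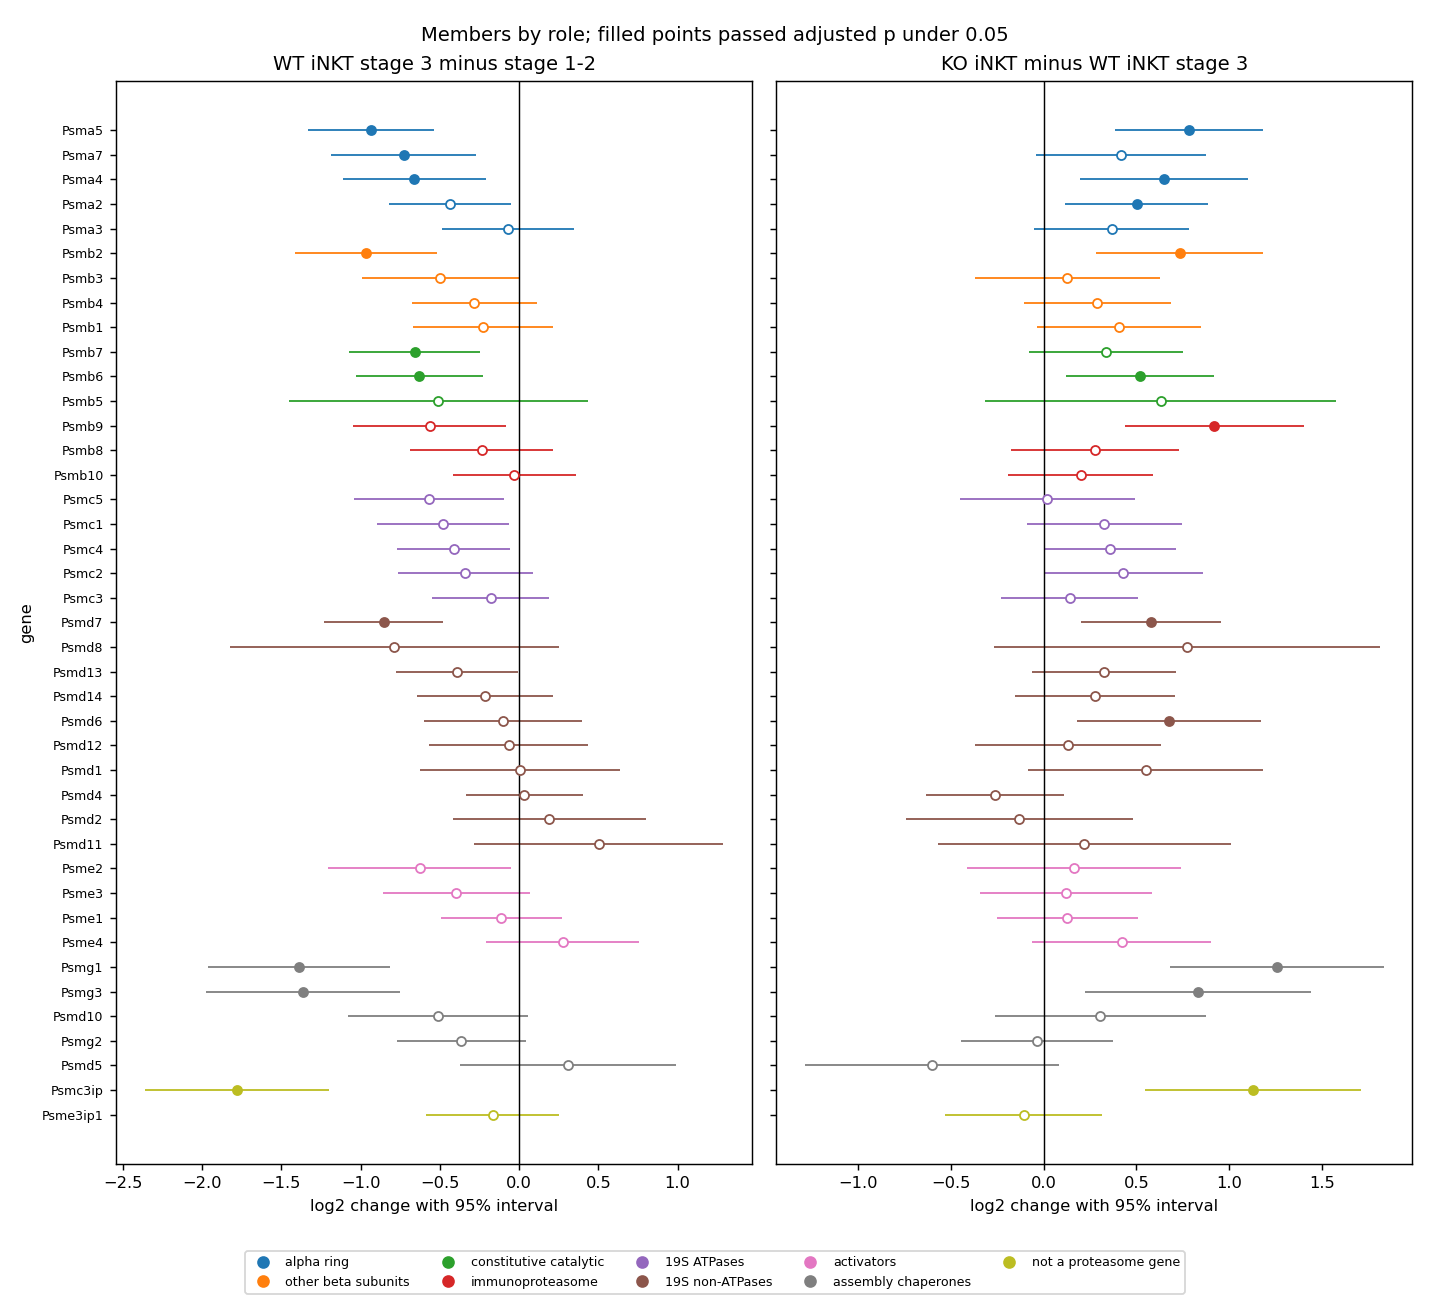
Log2 change with its 95% interval for the 41 measured genes, coloured by role, in WT iNKT stage 3 minus stage 1-2 (left) and KO iNKT minus WT iNKT stage 3 (right); filled points passed at an adjusted p under 0.05. On the left 10 genes passed, all lower, and on the right 11 passed, all higher, and both panels share the stage 3 arrays.

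Stages differed in more than the proteasome. Of 20 cell cycle genes 13 were lower in stage 3 and 0 higher, with mean levels of 6.07 to 6.31 against 7.42 to 7.64; Uhrf1 fell by 2.45, Birc5 by 2.52 and Stmn1 by 2.09. The neutrophil and monocyte markers were also lower in stage 3, 7 of 8 passing, as were 4 of 4 B and antigen-presenting cell markers, 4 of 4 plasmacytoid dendritic cell markers and 2 of 3 conventional T cell markers. The part of any of these in the proteasome values was not tested. Genes of MHC class I processing did not follow the proteasome genes: 4 of 10 were higher in stage 3 and 0 lower. H2-K1, a class I heavy chain, was 6.33, 6.87 and 7.33 in stage 1-2 and 8.75, 8.56 and 8.87 in stage 3, and rose by 1.88 ± 0.27 (limma adjusted p = 1.152e-04). H2-D1 rose by 1.05 and Tapbpl, a peptide editor, by 0.93, while Tap1 changed by 0.30 and did not pass (limma adjusted p = 0.3242).

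**Figure D4:**
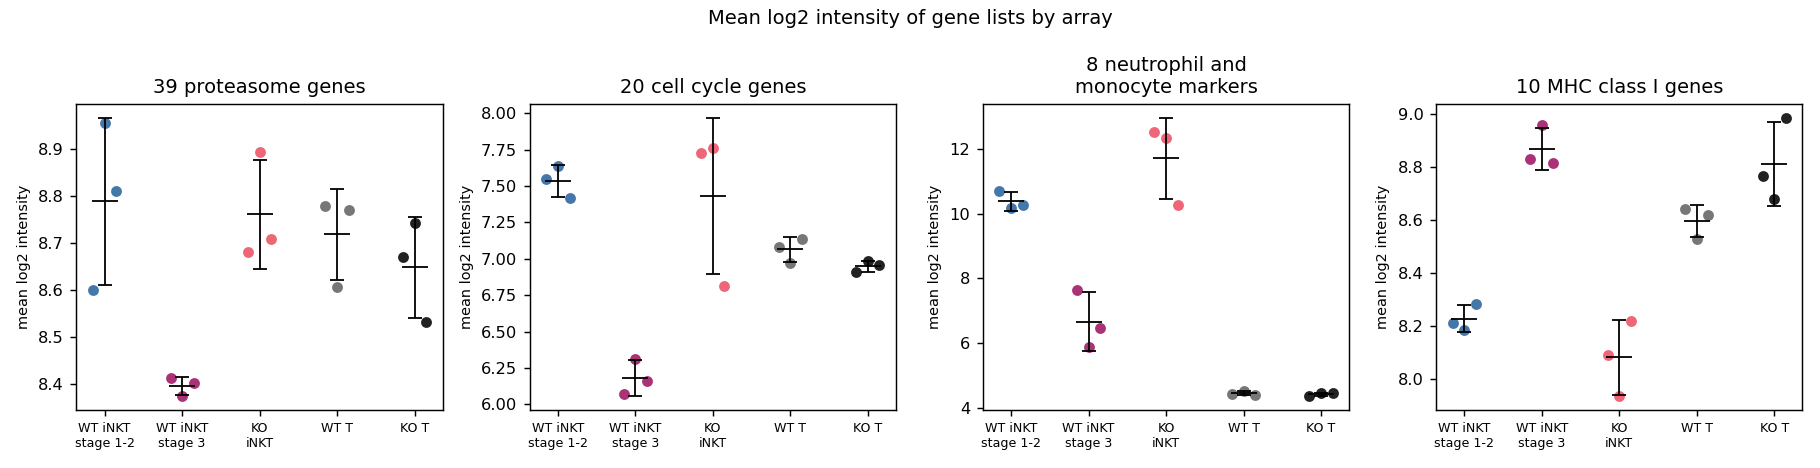
Mean log2 intensity on each of 15 arrays for 39 proteasome genes, 20 cell cycle genes, 8 neutrophil and monocyte markers and 10 MHC class I processing genes, with the mean and SD of each group; vertical axes differ and do not start at 0. Stage 3 is the lowest group for proteasome and cell cycle genes and lies above stage 1-2 and KO iNKT for MHC class I genes.

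When arrays were scaled to a common median in place of quantile normalisation, 0 of the 41 genes passed in any comparison, and the genes passing in stage 3 against stage 1-2 fell from 1377 to 90 in all; under that scaling the median of all genes moved to -0.22 and that of the 41 genes to -0.71, a relative change of -0.49. Without stage 1-2 replicate 2, or without replicate 3, 6 of the 41 genes were lower in place of 10, and each of those left-out fits kept a count of 0 higher. Of the 10 calls 6 were kept whichever array was left out, those of Psmg1, Psmg3, Psma5, Psmb2, Psmd7 and Psmc3ip. The calls of the catalytic subunits Psmb6 and Psmb7 and of Psma4 and Psma7 were each lost in 3 to 5 of 6 such fits.

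The KO iNKT cells were set against both WT stages because that sort was undivided. Against stage 1-2, 0 of 41 genes passed either way, when 1.05% of all genes passed as lower and 1.96% as higher in the limma fit. Of the 41 genes 4 had an unadjusted limma p under 0.05, against 18.7% of all genes, and the lowest adjusted p was 0.1079. Without Psmd6, which only KO iNKT cells detected on all 3 arrays, 3 of 40 genes had such an unadjusted p. The median log2 change was -0.06 against -0.01 over all genes. Of the catalytic subunits Psmb9 was 0.36 higher with a 95% interval of -0.13 to 0.84, Psmb8 0.04 higher (interval -0.41 to 0.50), Psmb10 0.17 higher (interval -0.22 to 0.56) and Psmb7 -0.32 (interval -0.73 to 0.09). Single further probes gave other results: in a limma fit of every probe, a dimmer probe of Psmd7 was lower by a log2 change of -1.15 (adjusted p = 0.04618) and a dimmer probe of Psmd10, which encodes the chaperone gankyrin, by -0.96 (adjusted p = 0.02), where the brightest probes gave -0.28 and -0.21.

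Against stage 3, 11 of 41 genes were higher in KO iNKT and 0 lower (26.8% higher), when 16% of all genes passed as higher and 14% as lower. The arrays did not overlap for 21 genes that were higher (51.2%) and 1 that was lower, against 20.7% and 18.4% of all genes. The median log2 change was 0.34 against -0.01 over all genes, with 36 of 41 positive. The comparison shares the stage 3 arrays with the one of the WT stages, so the values are given side by side and are not independent of it.

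Psmg1 was 7.12, 7.59 and 6.53 in KO iNKT and rose by 1.25 ± 0.27 over stage 3 (2.39-fold, limma adjusted p = 0.002319). Psmb9 rose by 0.92 ± 0.23 (1.89-fold, limma adjusted p = 0.005968), every KO iNKT array lying above every stage 3 array. Psma5 was 10.78, 10.84 and 10.81 in KO iNKT and rose by 0.78 ± 0.19 (1.72-fold, limma adjusted p = 0.004954). Psmg3 rose by 0.83 ± 0.29 (limma adjusted p = 0.03842), but its KO iNKT arrays at 5.76, 6.76 and 5.92 overlapped stage 3, and the call was kept in 3 of 9 alternative settings, with a change of 0.32 in the authors' normalized values. Psmb2 rose by 0.73, Psma4 by 0.65, Psmd7 by 0.58, Psmb6 by 0.52 and Psma2 by 0.50, with limma adjusted p between 0.01559 and 0.04614. The dimmer probe of Psmd7 went the other way (-0.63, adjusted p = 0.1304 in a limma fit of every probe). Psmd6, a lid subunit, was detected on all 3 arrays of KO iNKT cells, on 2 of KO T cells and on 0 of the other groups. It was thus measured only through the group in which it was high, and its call supports nothing. Of the remaining 40 genes 10 were higher (25%), 20 were higher without overlap of the arrays (50%) and 35 had a positive change. The level of Psmd6 is described next. Its level in KO iNKT was at least 1.08-fold that of stage 3 (limma adjusted p = 0.0383), a bound set by the lowest detected signal of each stage 3 array, and the call was kept in 2 of 8 alternative settings. Psmc3ip rose by 1.13 ± 0.28 (limma adjusted p = 0.005344).

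Among the constitutive catalytic subunits Psmb6 passed in KO iNKT against stage 3, a call lost in 4 of 9 alternative settings and in 5 of 6 fits without 1 array. Psmb7 (0.34, interval -0.08 to 0.75) and Psmb5 (0.63, interval -0.31 to 1.58) did not pass. Psmb8, Psmb10, Psme1 and Psme2 changed by 0.28, 0.20, 0.13 and 0.17 and did not pass, although a dimmer probe of Psme1 was higher by 0.52 (adjusted p = 0.04211 in a limma fit of every probe). Of the cell cycle genes 13 of 20 were higher in KO iNKT and 0 lower. The genes higher in KO iNKT included 7 of 8 neutrophil and monocyte markers and 4 of 4 B and antigen-presenting cell markers. They also included 4 of 4 plasmacytoid dendritic cell markers, 3 of 3 conventional T cell markers and 2 of 3 double-positive thymocyte markers. Lower were 3 of 3 iNKT markers and 3 of 4 general T cell markers. The part of any of these lists in the proteasome values was not tested. MHC class I genes were lower, 4 of 10 passing and 0 higher: H2-K1 fell by 1.97, Tapbpl by 1.51 and H2-D1 by 0.89. Without KO iNKT replicate 2, 5 of the 41 genes passed in place of 11, and without stage 3 replicate 3, 6 did; without KO iNKT replicate 1 or 3, 7 did. Of the 11 calls 4 were kept whichever array was left out, those of Psmb9, Psmg1, Psma5 and Psmc3ip.

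**Figure D5:**
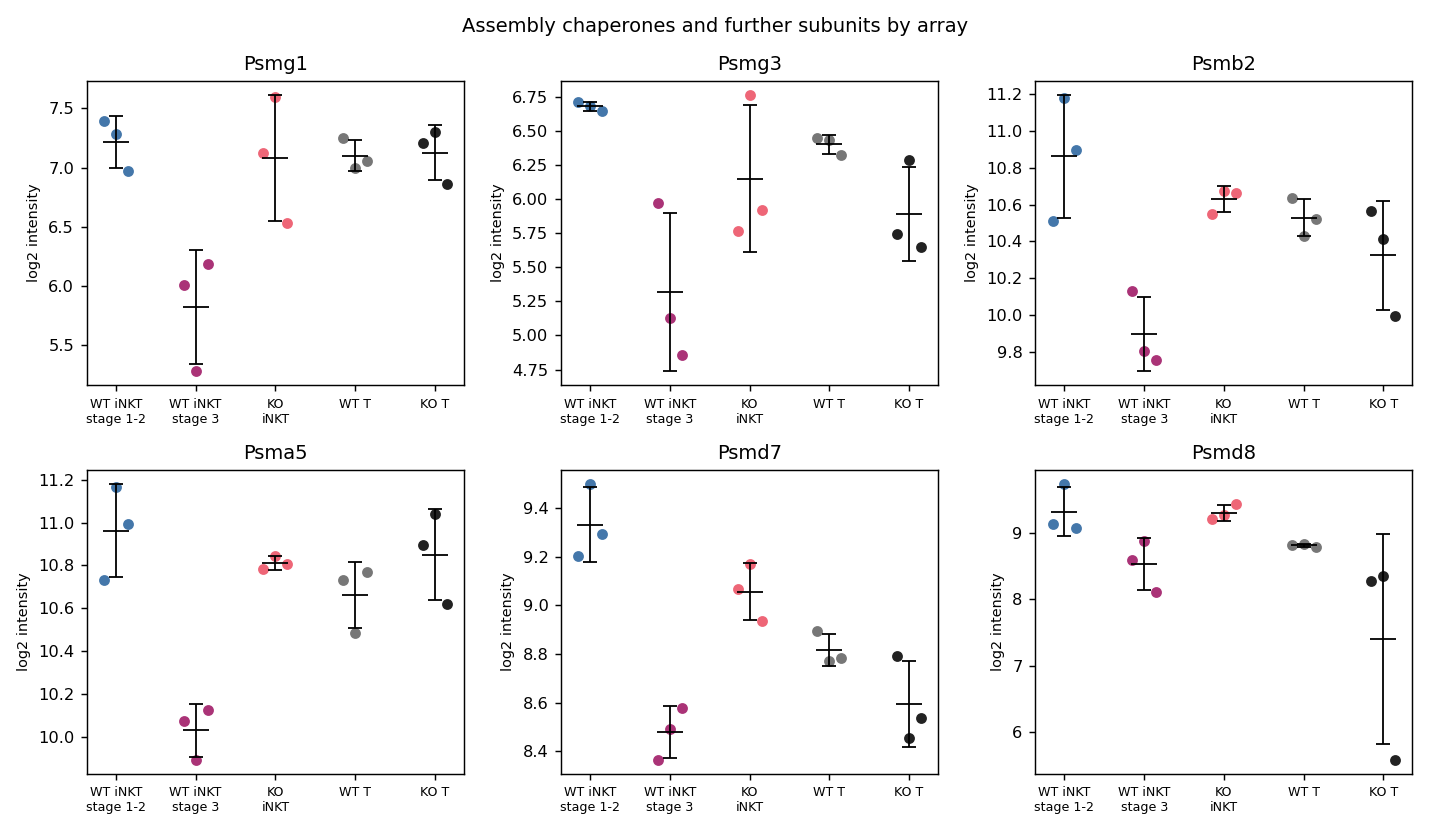
Log2 intensity of 6 further genes on each of 15 arrays with the mean and SD of each group; vertical axes differ and do not start at 0. Psmg1, Psmb2, Psma5 and Psmd7 are lower on every stage 3 array than on any stage 1-2 or KO iNKT array, and Psmd8 stands at 5.58 on KO T replicate 3.

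WT iNKT cells were also compared with WT T cells. In stage 1-2, 2 of 41 genes were higher (4.88%) and 1 was lower (2.44%), shares below the background given above for Psmb9. Psmc1, an ATPase of the cap, was 8.16, 8.47 and 8.13 in stage 1-2 and 7.67, 7.59 and 7.77 in WT T cells and rose by 0.58 ± 0.20 (limma adjusted p = 0.04362). Psmd7 rose by 0.52 ± 0.18 (limma adjusted p = 0.04557), and Psmb9 was the gene that fell. Of 6 fits without 1 array, the call of Psmc1 was lost in 6 and that of Psmd7 in 5, and 0 to 1 of the 41 genes passed over all such fits. In a limma fit of every probe neither Psmd7 probe passed (0.52 and 0.41, adjusted p = 0.05198 and 0.3714). The fall of Psmb9 was lost without stage 1-2 replicate 1 or without WT T replicate 1, with a highest limma adjusted p of 0.05818. Psmb6 differed by 0.40 with an interval of 0.00 to 0.80 (limma adjusted p = 0.1467), opposite in sign to Psmb9. Psme1 and Psme2 differed by -0.34 and 0.15 and did not pass.

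In stage 3, 8 of 41 genes were lower than in WT T cells and 0 higher (19.5% lower), against the 12.5% and 10.6% of all genes given above, and the arrays did not overlap for 18 lower and 2 higher genes (43.9% and 4.88%), against 22.6% and 17.7% of all genes. The median log2 change was -0.28 against -0.06 over all genes. The chaperone genes Psmg1 and Psmg3 were lower as well. Psmg1 fell by 1.27 ± 0.27 from 7.25, 7.0 and 7.05 in WT T cells (2.42-fold lower, limma adjusted p = 0.002481), and Psmg3 by 1.08 ± 0.29 from 6.45, 6.43 and 6.32 (2.12-fold lower, limma adjusted p = 0.01125). Without background correction their changes were -0.60 and -0.40, and the Psmg3 call was lost without stage 3 replicate 3. Psmd10 was 7.94, 6.73 and 7.87 in stage 3 and 8.56, 8.37 and 8.42 in WT T cells and fell by 0.94 ± 0.27 (limma adjusted p = 0.01759). Its other probes did not pass (-0.44 and -0.54, adjusted p = 0.2196 and 0.08324 in a limma fit of every probe), and the call was lost without stage 3 replicate 2 or WT T replicate 1. Psma4 fell by 0.72, Psma5 by 0.63 and Psmb2 by 0.63, and Psmc3ip fell by 1.26. The dimmer probe of Psmb2 did not pass (-0.39, adjusted p = 0.1845 in a limma fit of every probe). Psmb7 (-0.51, limma adjusted p = 0.06979), Psme1 (-0.45, limma adjusted p = 0.08307) and Psmb6 (-0.23, limma adjusted p = 0.4091) did not pass. A second Psmb7 probe, also detected on all 15 arrays, did pass (-0.77, adjusted p = 0.02829 in a limma fit of every probe). Of the 8 calls 3 were kept whichever array was left out, those of Psmb9, Psmg1 and Psmc3ip. Without WT T replicate 1, 4 genes passed in place of 8, and without WT T replicate 3 or stage 3 replicate 2, 5 did. Of 20 cell cycle genes 9 were lower in stage 3 than in WT T cells and 0 higher. Birc5, Stmn1 and Uhrf1 had log2 changes of -2.17, -2.08 and -1.29. In stage 1-2, 6 of the 20 were higher than in WT T cells and 1 was lower. The part of the cell cycle genes in the proteasome values was not tested.

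Genes that work with the immunoproteasome also differed between WT iNKT and WT T cells. In stage 1-2, 5 of 10 MHC class I processing genes were lower and 1 was higher. Tap1, whose start faces that of Psmb9, was 7.15, 7.10 and 7.40 in stage 1-2 and 8.16, 8.25 and 7.78 in WT T cells and fell by 0.84 ± 0.21 (limma adjusted p = 0.006126). Nlrc5, the transactivator of class I genes, fell by 1.22 ± 0.29 (limma adjusted p = 0.005631), and Pdia3, a chaperone of peptide loading, rose by 1.08 ± 0.24 (limma adjusted p = 0.003581). In stage 3 the same list had 3 genes higher and 0 lower, with Tap1 at -0.54 (limma adjusted p = 0.06805). Of the 10 interferon-induced genes outside these lists 5 were lower and 0 higher in stage 1-2, and 5 were lower and 1 higher in stage 3; the GTPase gene Ifi47 fell by 1.90 and by 1.57. Of 9 interferon signalling genes 4 were lower and 1 higher in stage 1-2, and 2 were lower and 3 higher in stage 3. Irf8, also a marker of plasmacytoid dendritic cells, was higher in both, by 2.84 and 1.60, and Irf9 lower, with log2 changes of -1.26 and -1.27. The neutrophil and monocyte markers were higher in both stages than in WT T cells, 8 of 8 and 5 of 8 passing. Of 4 B and antigen-presenting cell markers 4 were higher in stage 1-2, and 3 were higher and 1 lower in stage 3. Of 4 plasmacytoid dendritic cell markers 3 were higher in stage 1-2, and 1 was higher and 1 lower in stage 3. Of 4 general T cell markers 4 were lower in stage 1-2 and 1 in stage 3. The part of any of these markers in these values was not tested.

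In KO T cells 0 of 41 genes passed against WT T cells in the limma fit, when 0.0292% of all genes were lower and 0.117% higher, which is 10 genes. By unadjusted p under 0.05, 2 of the 41 genes and 9.46% of all genes stood out, and the lowest adjusted p of the 41 was 0.3976. The median log2 change was -0.05 against 0.00 over all genes. Psmb9 differed by -0.02 with an interval of -0.50 to 0.46, Psmb8 by 0.07 (interval -0.38 to 0.52), Psmb10 by -0.02 (interval -0.41 to 0.37) and Psmb6 by -0.30 (interval -0.70 to 0.10). The difference between the KO effect in iNKT cells, taken against stage 1-2, and that in T cells also passed for 0 of 41 genes, when 0.0439% of all genes were lower and 0.132% higher; 0 of the 41 had an unadjusted p under 0.05, against 8.63% of all genes.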

How the data were processed

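RNA from sorted mouse thymocytes was measured on single-colour Illumina bead arrays, 15 arrays in 5 groups of 3, grouped by sample title. Per the file headers, the authors deposited non-normalized signal intensity per probe with a detection p-value, and GenomeStudio (version not given in the sources used here) is named in the submitters' processing notes. A second deposited table holds intensity values normalized by the authors and was used as an alternative only. Depth does not apply to arrays; their number, 3 per group, limits the precision.

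Of 25697 probes 23978 carried 1 gene symbol. Intensities were corrected and quantile normalized with neqc (offset 16) of limma 3.58.1 in R 4.3.3 and put on the log2 scale. A probe was kept if some group had a detection p under 0.05 on each of its 3 arrays, and the brightest kept probe stood for its gene. The limma fit estimated 5 group means from the 15 arrays together, leaving 10 residual degrees of freedom, with two-sided contrasts and Benjamini-Hochberg adjustment over 6838 genes. Pair differences between iNKT and T cells were tested by exact permutation of single arrays, not of whole groups. On simulated data for stage 3 against stage 1-2 with 6838 genes, 50 genes were changed at each fold. The fit recovered 6%, 54%, 90% and 92% of genes changed 1.5, 2, 3 and 4-fold, and called 9 of 6638 unchanged genes. In the data 1377 genes passed in this comparison, far more than were changed in the simulation, which makes the adjusted threshold less strict. The simulated rates therefore do not carry over, and the share of small changes missed in the data was not measured.

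The members, gene lists and tests were chosen with earlier results of these data known. Set to be named in every comparison were Psmb5 to Psmb10, Psme1 and Psme2, but some comparisons give values for only part of them. Those left out did not pass there. Then came up to 4 further members each way with the largest passing change, and up to 3 genes of each other list by adjusted p. Psma4, Psma5, Psma7 and Psmd7 in the comparison of the WT stages, Psma2, Psma4, Psmb2, Psmd6 and Psmd7 in KO iNKT against stage 3, and Psma4, Psma5 and Psmb2 in stage 3 against WT T cells were named after their values were seen, as were Psmc3, Psmd8, Psmd11 and single dimmer probes. The set of 10 interferon-induced genes is a list of 14 without Psmb8, Psmb9, Psmb10 and Tap1, which other lists hold, and was also formed after the values were seen. Alternatives were other normalizations, filters, array weights, a replicate block and leaving out each array. Promoter windows came from RefSeq (GRCm38.p6), with 39 of 45 genes matched; those of Psmb1, Psmb2, Psmb7, Psmc3, Psmd7 and Psmg2 were not used here. Figures used Python 3.11.15, pandas 2.3.3, numpy 2.4.6 and matplotlib 3.10.9.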

Additional observations from a re-analysis of the deposited data

How the results depend on the processing

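Median scaling ended every member's call, with 0 genes passing in stage 3 against stage 1-2, KO iNKT against stage 3 and both comparisons of WT iNKT with WT T cells; the cause was not tested. Under it the 41 genes moved relative to all genes by -0.49, 0.32, 0.07 and -0.40 in these comparisons, each with the sign of the quantile fit. With the compared groups alone, and so fewer arrays, 6, 5 and 1 genes passed in stage 3 against stage 1-2, KO iNKT against stage 3 and stage 1-2 against WT T. Array weights gave 6 in KO iNKT against stage 3, 1 in KO iNKT against stage 1-2 and 5 in stage 1-2 against WT T. The count of 3 in stage 1-2 against WT T was 6 in the authors' table, 7 by quantile normalisation without background correction, 5 with no detection filter and 1 when a fold of 1.5 was also required. Testing every kept probe gave 2 in KO iNKT against stage 1-2. Leaving out 1 array gave 6 to 10 genes in stage 3 against stage 1-2, 5 to 9 in KO iNKT against stage 3, 0 to 1 in stage 1-2 against WT T, 4 to 7 in stage 3 against WT T, 0 to 1 in KO iNKT against stage 1-2 and 0 in the others. Psmb9 minus Psmb6 between iNKT and T cells ranged from -1.286 to -1.1462 over these and from -1.23 to -1.0809 over the other settings, -1.0809 being the KO arrays alone (exact permutation p = 0.1). Psmb8 minus Psmb5 and Psmb10 minus Psmb7 passed under none of them.

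The same replicate numbers occur in every group. Over 30 same-numbered pairs, 3 had deviations correlated above 0.1 (range -0.233 to 0.481), and 2 of 15 arrays correlated best with their own number, so the numbers were not taken to pair arrays. With the replicate block the counts were 10, 9, 1 and 7 in stage 3 against stage 1-2, KO iNKT against stage 3, stage 1-2 against WT T and stage 3 against WT T. A block for the chip was not run, since the headers used here hold no chip identifier. Genes near background (Psmd1, Psmd2, Psmd5, Psmd6 and Psmd11) are limited by signal.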

Other observations

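Psmd8, a lid subunit of the 19S cap, was 8.27, 8.35 and 5.58 on the KO T arrays and 8.81, 8.83 and 8.78 in WT T cells. Its mean change of -1.41 in KO T cells was the lowest of the 41 genes and rests on replicate 3.

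Among further probes tested in a limma fit of every kept probe, the dimmest kept probe of Psmb7 gave -0.89 in stage 3 against stage 1-2 (adjusted p = 0.07897), where the others gave -0.66 and -0.91 and passed. The dimmer probe of Psmb2 gave 0.31 in KO iNKT against stage 3 (adjusted p = 0.2579), where the brighter one gave 0.73 and passed. One of 3 probes of Psmd10 was lower in KO iNKT than in stage 3, by a log2 change of -0.60 (adjusted p = 0.04331), where the brightest gave 0.31.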
